A study of Homo sapiens with 18 samples.

Results

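The genes described here encode the subunits and assembly factors of the proteasome. They were taken by name, as every gene whose symbol is PSMA, PSMB, PSMC, PSMD, PSME, PSMF or PSMG followed by a number, together with POMP, and 49 of the 59251 genes in the count table met this rule. Of these, 19 form or replace parts of the core (PSMA, PSMB), 25 belong to regulators of the core (PSMC, PSMD, PSME, PSMF) and 5 are chaperones of core assembly (PSMG, POMP). Poly(A)-selected RNA was sequenced from HEK-293T, a human embryonic kidney cell line, in 6 groups of 3 libraries. Untransfected cells received DMSO (labelled 0.5 µM), rapamycin (0.1 µM), which inhibits the mTOR kinase, or grazoprevir (0.5 µM), an inhibitor of a hepatitis C protease. The wtCsy4 group was transfected with full-length Csy4, a bacterial CRISPR endoribonuclease that cuts RNA at a short hairpin, and was given DMSO (0.5 µM) 6 hours later. Both other transfected groups carried split Csy4, whose parts grazoprevir brings together, and were given DMSO (0.5 µM; SplitCsy4_DMSO, untriggered) or grazoprevir (0.5 µM; SplitCsy4_Grazoprevir, triggered) 6 hours after transfection. Every label gives 70000 cells. No group was transfected without a form of Csy4, so transfection and the enzyme cannot be told apart in comparisons with untransfected cells. The labels do not say that replicates came from separate cultures, and p-values then measure only the spread between these libraries.

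The proteasome is the main protease of the cytosol and nucleus and degrades proteins tagged with ubiquitin. Its core is a barrel of stacked rings: alpha subunits (PSMA) form the outer rings and the gate, and beta subunits (PSMB) form the inner rings, of which PSMB5, PSMB6 and PSMB7 carry the standard active sites. PSMB8, PSMB9 and PSMB10 replace these in the immunoproteasome, which interferon induces. A regulatory particle caps the barrel, with a base that holds the ATPases PSMC1 to PSMC6 and a lid built from most PSMD subunits, and other caps are made by PSME proteins. PSMG1 to PSMG4 and POMP help to build the core. When proteasome activity falls, the transcription factor NFE2L1 raises the transcription of many proteasome genes together through antioxidant response elements upstream of them.

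Upstream sequences are shown for 4 genes named in the results below. *PSMD12* and *PSMD3* are lid subunits that were higher in transfected cells, and *PSME1* is an activator subunit that was lower there. *PSMA6* is an alpha subunit that was lower with full-length Csy4. The sequences run from 250 bases before the RefSeq start (GRCh38.p14) toward that start, 5′ to 3′ on the strand of the gene. They stop before any exon of the gene annotated in GENCODE 29. Capitals mark the letters TGACNNNGC, the shortest form of the antioxidant response element.
PSMD12 (minus strand, chr17:67366628-67366827): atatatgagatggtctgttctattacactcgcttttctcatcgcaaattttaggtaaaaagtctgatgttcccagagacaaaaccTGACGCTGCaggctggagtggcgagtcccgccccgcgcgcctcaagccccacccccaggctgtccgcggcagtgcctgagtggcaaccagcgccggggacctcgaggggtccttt
PSMD3 (plus strand, chr17:39980557-39980796): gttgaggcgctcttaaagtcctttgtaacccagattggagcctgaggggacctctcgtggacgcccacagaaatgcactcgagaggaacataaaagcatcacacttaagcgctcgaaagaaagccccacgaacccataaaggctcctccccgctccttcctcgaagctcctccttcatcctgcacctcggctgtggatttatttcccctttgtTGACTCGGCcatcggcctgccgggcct
PSME1 (plus strand, chr14:24135944-24136157): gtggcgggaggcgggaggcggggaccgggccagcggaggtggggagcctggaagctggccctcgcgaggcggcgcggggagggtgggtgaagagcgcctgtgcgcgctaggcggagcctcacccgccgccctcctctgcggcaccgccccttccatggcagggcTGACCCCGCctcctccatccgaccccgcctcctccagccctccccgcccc
PSMA6 (plus strand, chr14:35292067-35292316): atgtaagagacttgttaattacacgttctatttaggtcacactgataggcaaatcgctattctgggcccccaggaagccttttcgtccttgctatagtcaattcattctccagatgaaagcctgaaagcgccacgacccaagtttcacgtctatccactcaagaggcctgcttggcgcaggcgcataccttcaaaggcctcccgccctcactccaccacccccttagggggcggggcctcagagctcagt

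The letters begin 165 bases before the start of *PSMD12*, 37 before that of *PSMD3* and 86 before that of *PSME1*, and neither strand of the *PSMA6* window holds them; that window precedes the first of 2 RefSeq starts and lies inside the gene as GENCODE draws it. The RefSeq table had an entry for 43 of the 49 genes; *PSMA7*, *PSMB1*, *PSMB6*, *PSMB7*, *PSMD4* and *PSMG3* had none. Searched on both strands of the 250 bases before the start (TGACNNNGC or GCNNNGTCA), the letters were found for 13 of the 43 genes, that is 3 of 15 core genes, 8 of 24 regulators and 2 of 4 chaperones. By window, 25% of the 52 listed for these genes and 10.9% of all 35116 in the table held them. The 13 include genes that were higher in transfected cells, genes that were lower there, and *PSMB9*, which was hardly expressed. *PSMC2* and *PSMC4*, also higher in transfected cells, had an entry but not the letters. The 4 genes shown are thus not a fair sample of the 43. A match is a description of the sequence and does not show a site in use.

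Depth was similar in all groups, at 12362101 to 19095828 counts a library, and the 49 genes together held 0.558% to 0.629% of the counts. Levels are given in CPM, counts scaled to the TMM-adjusted size of each library, with the SD over 3 libraries. Of all genes, 17966 had enough counts to be tested, and so did 45 of the 49. One grazoprevir library, replicate 1, stood apart from the other grazoprevir libraries (chi-square per degree of freedom of 4.64 and 3.57, against 1.85 to 2.8 for every other pair within a group), so the main counts that rest on this group are also given without it. The line showed 6 of 7 HEK-293T markers, with *SOX11* at 0 counts, and a summed level of these markers of 979 to 989 CPM with DMSO, 1040 to 1050 with full-length Csy4, 1120 to 1150 with either split form, 935 to 968 with grazoprevir and 985 to 1010 with rapamycin. The 7 fibroblast markers summed to 59.1 to 61.1 CPM with DMSO, 37.9 to 46.5 with full-length Csy4, 46.6 to 54.5 with either split form, 52.1 to 56.5 with grazoprevir and 38.8 to 39.8 with rapamycin. The 6 markers of carcinoma lines summed to 14.7 to 15.1 CPM with DMSO, 10.5 to 11.9 with full-length Csy4, 12.5 to 14 with either split form, 13.1 to 15.8 with grazoprevir and 7.04 to 8.08 with rapamycin, and 7 blood markers to at most 5.21 CPM in any library, with *CD3E* and *HBB* at 0. The part of these shifts in the results was not tested, and in bulk RNA fewer cells of a type and less RNA per cell cannot be told apart.

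Some of the tested genes share over 10% of their exon bases with a neighbour, and the strand setting of the counting is not given in the sources used here. By GENCODE 29, 82.1% of the exon bases of *PSMC1* also lie in exons of *NRDE2* on the opposite strand, and the same holds for 16.2% of *PSMC5* with *FTSJ3*, 14.7% of *PSMG2* with *CEP76* and 10.4% of *PSMD13* with *SIRT3*. Genes of the annotation that are absent from the table under their symbol share exon bases on the same strand with *PSMA6* (63.9%, AL121594.1), *PSMA2* (52.5%), *PSMA1* (35.7%), *PSMB10* (30.7%) and *PSMD9* (15.7%), and on the opposite strand with *PSMD7* (42.4%). How reads on shared bases were assigned is not given in the sources used here. The counts of these 10 genes could hold reads of a partner or lack reads of the gene itself. Every value given below for them is thus uncertain in this respect. The processed pseudogene *PSMC6P1* had 4.21% of the counts of *PSMC6*, *PSMC1P1* 2.89% of those of *PSMC1* and *PSMA6P1* 2.46% of those of *PSMA6*.

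In DMSO the level differed widely between the proteasome genes. The 43 tested genes with at least 10 CPM had a median level of 126.8 CPM (16.1 to 332 CPM), and the highest was *PSMA4*. Levels per kilobase were divided by all annotated exon bases of a gene, 4665 for *PSMA4* and 964 for *PSMB4*. The order per kilobase thus depends on the annotation as well. Per kilobase of exon sequence the highest was *PSMB4*, a beta subunit, at 239 ± 6.08 CPM per kb (SD, n = 3), followed by *PSMD10*, a chaperone of base assembly (gankyrin), at 183 ± 2.16, and *PSMA3* at 140.1 ± 2.68. *PSMB1* (136 ± 1.66) and *PSMD4*, a ubiquitin receptor of the base (134 ± 8.51), followed *PSMA3* and lay within 1 SD of each other. *PSMD5*, another chaperone of base assembly, was far lower than the rest of the regulators at 1.26 ± 0.165 CPM.

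The immunoproteasome was nearly silent in all 6 groups. *PSMB8* (chr6:32840717-32844703, hg38) had 13 counts over the 18 libraries, at most 3 in any one, and *PSMB9* (chr6:32844136-32859585) had 42, at most 9 in any one. The testis form *PSMA8* had 5 counts in all and the thymus form *PSMB11* had 2. These 4 genes were not tested; for comparison, 3 counts over all libraries would be a level of 0.0112 CPM. *PSMB10* was the only inducible catalytic subunit with enough counts, at 6.63 ± 1.35 CPM in DMSO (5.44 ± 1.11 CPM per kb).

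**Figure D1:**
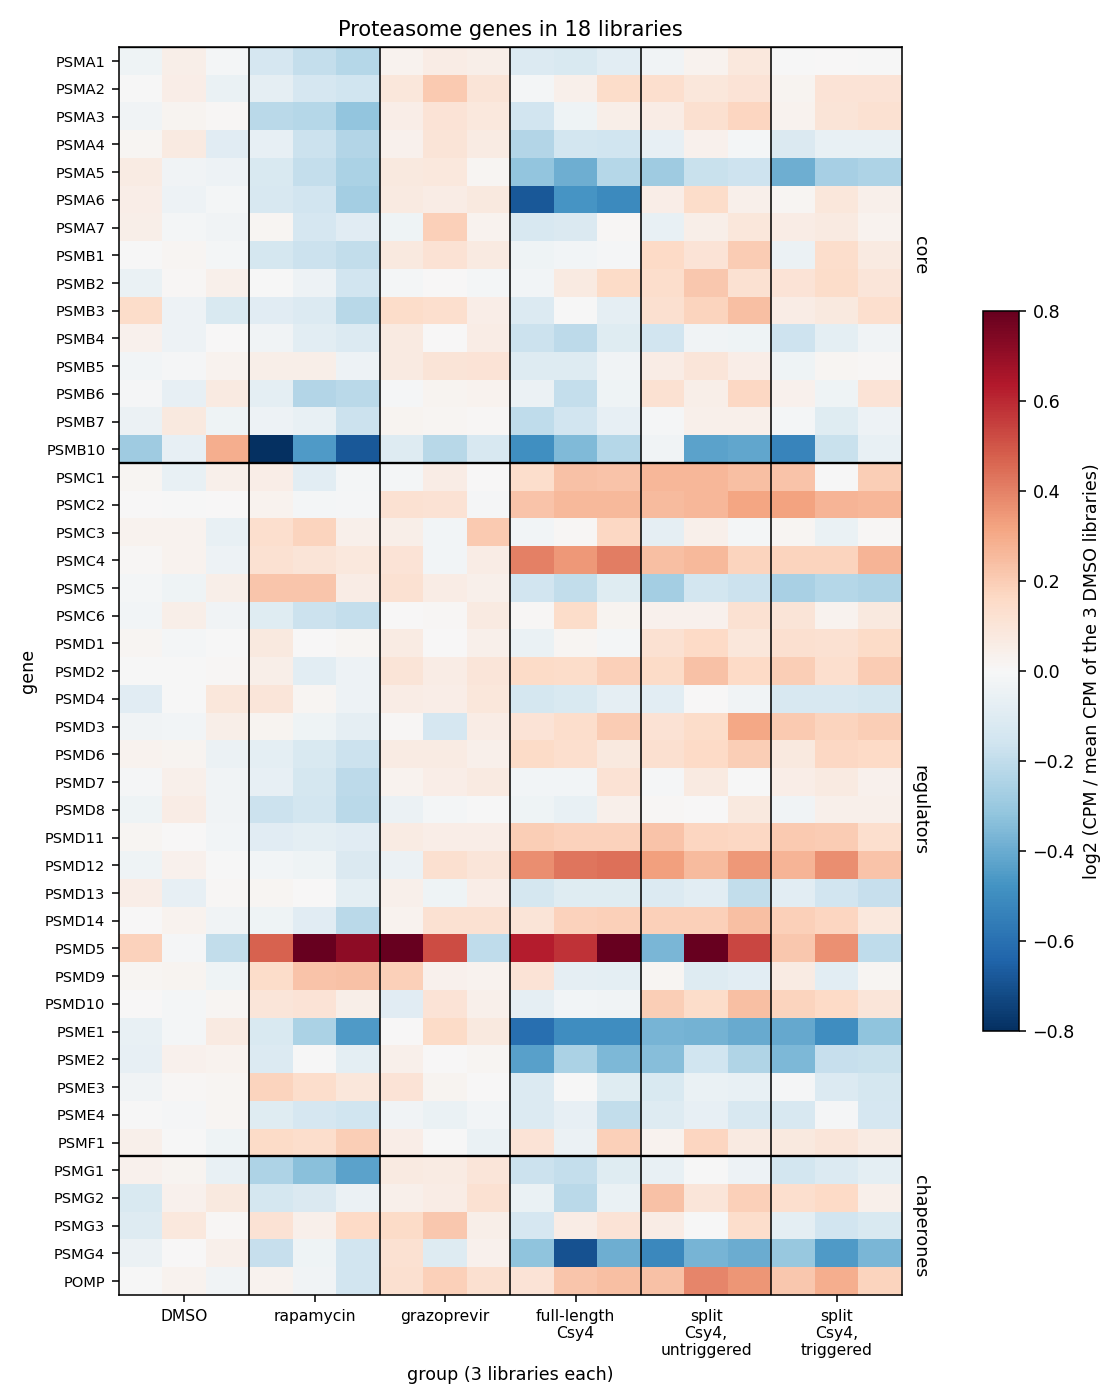
Log2 of the CPM in each of the 18 libraries (columns, grouped by treatment) over the mean CPM of the 3 DMSO libraries, for the 45 tested genes (rows, by class); colours end at -0.8 and 0.8. In the 9 transfected libraries PSMD12, PSMC4 and PSMC2 are red and PSME1 and PSMG4 are blue, PSMA6 is blue with full-length Csy4, and PSMB10 is bluest with rapamycin.

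With full-length Csy4, 6 of 15 core genes fell and 9 of 17 base and lid genes rose against DMSO. Among the 45 tested genes 11 rose and 14 fell, with a median log2 fold change of -0.04. Genes averaging 10 CPM or more had nearly the same median, -0.037. For comparison, 46.9% of all tested genes were called in this comparison, 22.9% higher and 24% lower; among genes averaging 10 CPM or more the share was 61.7% (27.2% higher, 34.6% lower), and among the proteasome genes 55.6%, which is not above that of genes at such levels. Groups that do not overlap are also common, at 54% of all tested genes in this comparison, 40.6% and 40.8% for untriggered and triggered split Csy4 against their controls, 39.3% and 35.6% for full-length against untriggered and triggered split Csy4, and 43.6% for rapamycin. By class, 0 of 15 core genes rose and 6 fell (median -0.09), 10 of 25 regulators rose and 6 fell (median 0.05), and 1 of 5 chaperones rose and 2 fell. The core's share of falls, 40%, is near the 34.6% lower among genes averaging 10 CPM or more. Without full-length Csy4 replicate 2, 3 regulators fell, and without full-length Csy4 replicate 1, 1 core gene rose. The 17 base and lid subunits accounted for 9 of the rises and 3 of the falls, with a median of 0.12. The difference between core and regulators is a description of these counts and medians. With library totals as the only scaling, which puts the median of all tested genes at 0.06, 17 of the 45 genes rose and 6 fell, the median was 0.03, and the core showed 2 rises and 3 falls; the length and GC correction described below gave 2 rises and 4 falls in the core.

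The alpha subunit gene *PSMA6* (chr14:35278633-35317493, hg38) had the largest fall with full-length Csy4. Its level was 150.1, 141 and 144 CPM in the DMSO libraries and 90.7, 104 and 102 CPM with full-length Csy4. With untriggered split Csy4 it was 150.3, 161 and 149 CPM, and with triggered split Csy4 147, 155 and 149 CPM. All 3 full-length libraries lay below every other library of the study, the rapamycin ones (119.9 to 133 CPM) included. The log2 fold change against DMSO was -0.55 ± 0.05 (SE; edgeR adjusted p = 2.2e-17), against untriggered split Csy4 -0.63 ± 0.05 (edgeR adjusted p = 1.3e-19) and against triggered split Csy4 -0.60 ± 0.05 (edgeR adjusted p = 2.5e-18). Each of these calls held under every alternative run, including the test against a 1.2-fold change, but the share of its reads that comes from the overlapping gene is not known. Split Csy4 against its own untransfected control gave 0.08 ± 0.04 untriggered and -0.02 ± 0.04 triggered, neither of which passed the test.

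Other core genes moved less. *PSMA5* fell by 0.31 on the log2 scale against DMSO (SE 0.05; edgeR adjusted p = 1.7e-08), and *PSMA4*, *PSMB4*, *PSMB7* and *PSMA1* fell by 0.18, 0.16, 0.14 and 0.10. For the other catalytic subunits the fold changes did not pass the test: *PSMB5*, the chymotrypsin-like site, was at 143, 143 and 147 CPM with DMSO and 134, 134 and 141.5 CPM with full-length Csy4 (-0.08 ± 0.04), and *PSMB6*, the caspase-like site, changed by -0.09 ± 0.05. *PSMB7*, the trypsin-like site that is among the falls, was at 104, 114 and 105 CPM with DMSO and 93.3, 96.5 and 103 CPM with full-length Csy4, so its groups do not overlap but lie close together. *PSMB10* was at -0.33 ± 0.18, not past the test at its low level.

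Among the regulators, *PSMD12* (chr17:67337916-67366627, hg38), a lid subunit, was at 175, 184 and 179 CPM with DMSO and 232, 242 and 243 CPM with full-length Csy4. Its groups do not overlap, and the log2 fold change was 0.41 ± 0.04 (edgeR adjusted p = 4e-14). *PSMC4* (chr19:39971005-39981441), an ATPase of the base, went from 76.9, 77.9 and 74.4 CPM to 100.8, 97.1 and 101.5 CPM, a log2 fold change of 0.39 ± 0.05 (edgeR adjusted p = 2.7e-10). Both rises held under every alternative run. *PSMC2*, *PSMC1*, *PSMD11*, *PSMD2*, *PSMD14*, *PSMD3* and *PSMD6* rose by 0.12 to 0.25; *PSMD14* encodes the lid enzyme that removes ubiquitin chains and was at 127, 129 and 124 CPM with DMSO and 136.5, 144 and 145 CPM with full-length Csy4 (0.16 ± 0.04). *PSMD5* had the largest fitted rise, 0.78 ± 0.31 (edgeR adjusted p = 0.033), but at 1.43, 1.25 and 1.099 against 1.95, 1.88 and 2.71 CPM, and 6 of 15 alternatives lost the call.

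The activator genes went the other way. *PSME1* (chr14:24136158-24138967, hg38) and *PSME2* encode the subunits of an interferon-inducible cap. *PSME1* was at 45.3, 46.8 and 49.6 CPM with DMSO and 31.1, 33.5 and 33.5 CPM with full-length Csy4, with no overlap (log2 fold change -0.53 ± 0.07; edgeR adjusted p = 1.7e-09), and the fall held under every alternative. *PSME2* fell by 0.34 (SE 0.06). *PSME4*, a nuclear activator, fell by 0.12. *PSME3* (a nuclear cap) and *PSMF1* (an inhibitor of the core in vitro) were at -0.07 and 0.09 and did not pass the test. *PSMC5*, *PSMD4* and *PSMD13* were the base and lid subunits that fell, by 0.15, 0.11 and 0.11.

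Chaperones of the core were divided. *POMP*, which brings beta subunits onto the alpha ring, was at 101.4, 104 and 99.8 CPM with DMSO and 109.6, 118 and 120.1 CPM with full-length Csy4 (0.19 ± 0.05; edgeR adjusted p = 0.00056). *PSMG4*, which works with *PSMG3* on the alpha ring, was at 15.6, 16.1 and 16.6 CPM with DMSO and 12.9, 9.95 and 12.3 CPM with full-length Csy4 (-0.46 ± 0.11; edgeR adjusted p = 0.00023). *PSMG1*, the partner of *PSMG2*, fell by 0.15 (SE 0.05), a call that library-size scaling alone and the test against a 1.2-fold change lost.

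Untriggered split Csy4 gave more rises than falls against DMSO: 17 of the 45 genes rose and 7 fell, with a median of 0.07. Genes averaging 10 CPM or more had a median of 0.0028. In this comparison 28.9% of all tested genes were called, and 41% of genes averaging 10 CPM or more (20.9% higher, 20.2% lower), while 37.8% of the proteasome genes rose and 15.6% fell. Of 15 core genes 5 rose (*PSMB3*, *PSMB1*, *PSMB2*, *PSMA3* and *PSMA2*, by 0.11 to 0.18) and 1, *PSMA5*, fell (-0.21). Without DMSO replicate 3 or untriggered replicate 3 only 2 core genes rose, and without DMSO replicate 1 or untriggered replicate 2 only 3. Of 25 regulators 11 rose and 5 fell, 10 of the rises in base and lid subunits, and the falls numbered 3 without DMSO replicate 1, DMSO replicate 3 or untriggered replicate 3. *PSMD12* was at 225, 214 and 228 CPM (0.31 ± 0.04; edgeR adjusted p = 4.9e-09), *PSMC2* at 141, 143 and 148 CPM against 119, 119 and 119 (0.28 ± 0.04), and *PSMC1* at 0.26 ± 0.05. *POMP* had the largest rise, to 119.4, 133 and 129.9 CPM (0.33 ± 0.05; edgeR adjusted p = 6.6e-08). *PSMG4* and *PSME1* had the largest falls, to 11.3, 12.5 and 12.2 CPM (-0.42 ± 0.11) and to 36.5, 36.4 and 35.7 CPM (-0.38 ± 0.07). *PSMD14* rose by 0.21 (SE 0.04). *PSMB5*, *PSMB6* and *PSMB7* were at 0.07 ± 0.04, 0.12 ± 0.05 and 0.03 ± 0.05 and *PSMG1* at -0.03 ± 0.05, none past the test.

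Triggered split Csy4 was compared with grazoprevir alone, so that the drug is in both groups. Among the 45 genes 10 rose and 12 fell (median -0.02, beside -0.0013 for genes averaging 10 CPM or more). In this comparison 32.1% of all tested genes were called and 45.8% of genes averaging 10 CPM or more (22.7% higher, 23.1% lower). In the core 1 gene, *PSMB2*, rose and 3 fell. Among regulators 9 rose and 6 fell, and 3 of 5 chaperones fell. Without grazoprevir replicate 1 the counts were 7 and 11, with 6 rises and 5 falls among regulators and the core and chaperones as before. Regulators that rose numbered 4 without triggered replicate 1 and 5 without triggered replicate 3, and no core gene rose without triggered replicate 2. The largest changes were falls. *PSME1* was at 47.3, 52.6 and 49.9 CPM with grazoprevir and 35.5, 33.5 and 37.7 CPM with the triggered enzyme (-0.49 ± 0.07; edgeR adjusted p = 4.1e-08). *PSMG4* was at -0.39 ± 0.11, *PSMA5* at -0.36 ± 0.05, *PSMC5* at -0.32 ± 0.05, *PSME2* at -0.26 ± 0.06 and *PSMG3* at -0.26 ± 0.07, all past the test. *PSMD12*, at 174, 197 and 192 CPM with grazoprevir and 217, 233 and 210.3 CPM with the triggered enzyme, rose by 0.23 (SE 0.04). *PSMG1* fell by 0.19 (SE 0.05). *POMP* (0.08 ± 0.05), *PSMD14* (0.06 ± 0.04), *PSMB5* (-0.09 ± 0.04), *PSMB6* (0.02 ± 0.05), *PSMB7* (-0.06 ± 0.05) and *PSMB10* (-0.09 ± 0.18) did not pass the test. Fold changes in this comparison rose with transcript length across genes (Spearman's rho of 0.269 over 9820 genes, which share libraries), and the proteasome genes are short, with a median exon length of 1971 bases against 3475 for tested genes. After a correction for each library's trend with length and GC content the median of the 45 genes was 0.06, and 3 core genes rose and 2 fell.

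The comparisons of full-length Csy4 with DMSO and of triggered split Csy4 with grazoprevir share no library. Of 25 genes called in the first and 22 in the second, 17 were called in both in the same direction (68% and 77.3% of each list), 7 of them higher and 10 lower, and none was called in opposite directions. Over all genes averaging 10 CPM or more, those called in both in the same direction made up 56.4% and 76% of each list. Only 145 of these 10136 genes were called in opposite directions. The overlap and the lack of opposite calls are thus not read as particular to the proteasome genes. Without grazoprevir replicate 1 the overlap was 15 genes, 5 higher and 10 lower. Pearson's r over the 45 genes was 0.536, and 0.775 without *PSMD5* (0.647 and 0.769 without grazoprevir replicate 1); the genes share their libraries and their scaling, so this is a description. In all 3 comparisons of transfected with untransfected cells 7 genes were higher, all base or lid subunits: *PSMC1*, *PSMC2*, *PSMC4*, *PSMD2*, *PSMD3*, *PSMD11* and *PSMD12*. Lower in all 3 were 6 genes: *PSMA5*, *PSMC5*, *PSMD13*, *PSME1*, *PSME2* and *PSMG4*, of which *PSMC5* and *PSMD13* are also base or lid subunits. That is 15.6% and 13.3% of the 45, beside 12.4% and 13.6% of all genes averaging 10 CPM or more. Without grazoprevir replicate 1 *PSMC1* and *PSMD2* left the first list and the second stayed as it was. Base and lid subunits that rose with triggered split Csy4 against grazoprevir numbered 8, and 4 to 6 with 1 library left out. *PSMC1*, *PSMC5* and *PSMD13* are among the genes with an overlapping neighbour. Both comparisons with DMSO share that group's libraries. Of the 7, *PSMC2* and *PSMD12* kept all their calls under every alternative except the test against a 1.2-fold change, and of the 6, *PSMA5*, *PSME1*, *PSME2* and *PSMG4* did.

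**Figure D2:**
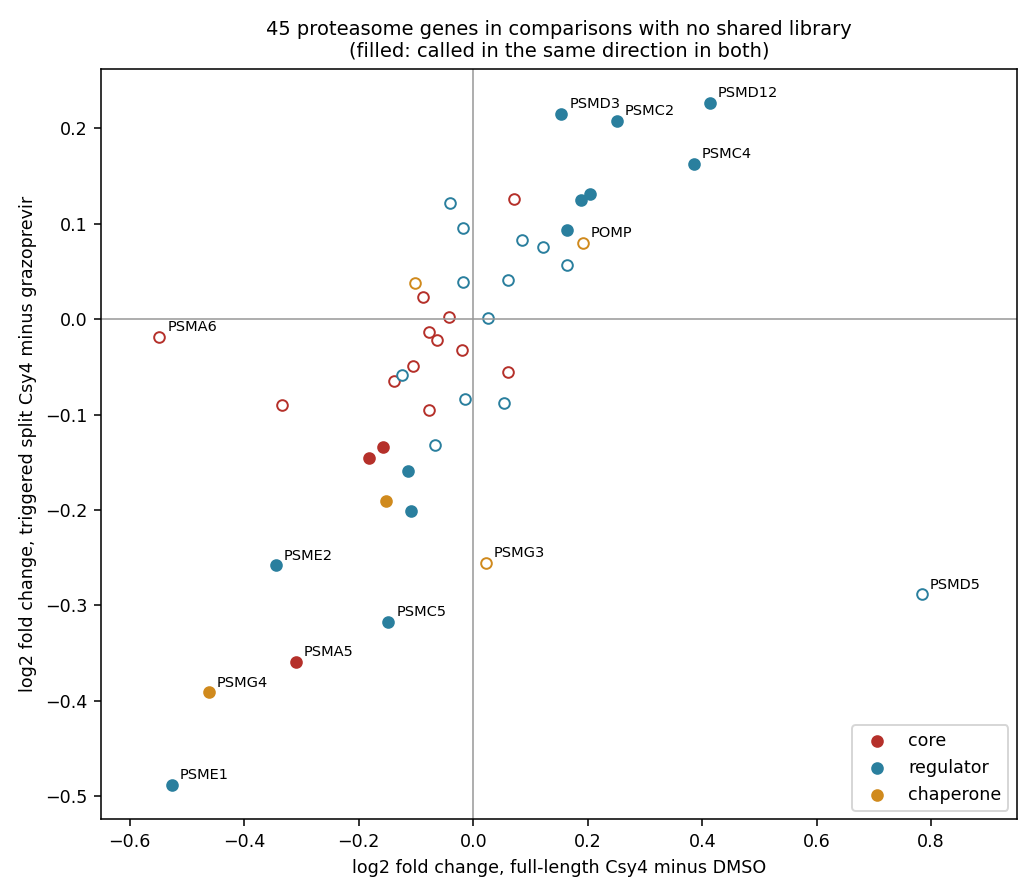
Log2 fold change of each of the 45 genes for full-length Csy4 against DMSO (horizontal axis) and triggered split Csy4 against grazoprevir (vertical axis), which share no library; colours give the class and filled points were called in the same direction in both. The 17 filled points lie in the lower left (10) and upper right (7), PSMA6 lies far to the left near 0 on the vertical axis, and PSMD5 (1.26 CPM in DMSO) far to the right.

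Full-length and untriggered split Csy4 differ, as far as the labels say, only in the construct, and all 15 core genes were lower with the full-length enzyme. Of these 15, 9 fell and none rose (median -0.15). Among 25 regulators 2 rose and 2 fell (median -0.02), and among 5 chaperones 3 fell. Genes averaging 10 CPM or more also had a median below 0, at -0.0293 (quartiles -0.1568 and 0.1063). Their share below 0 was not counted. The 2 regulator rises were 0 without untriggered replicate 3 and 1 without any other library of these groups except full-length replicate 1, and the 3 chaperone falls were 1 without full-length replicate 1, untriggered replicate 2 or untriggered replicate 3. In all, 2 of the 45 genes rose and 14 fell, or 31.1% fell, where 28% of all tested genes were called (13.1% higher, 14.9% lower), and 24.2% of genes averaging 10 CPM or more were called lower. Summed over the core, the level was 2128 ± 77 CPM with the full-length and 2376 ± 55.2 CPM with the untriggered split enzyme (SD, n = 3), against 2306 ± 29.8 CPM with DMSO. After *PSMA6*, the largest falls were those of *PSMG2* (-0.28 ± 0.08), *PSMB3* (-0.24 ± 0.05), *PSMD10* (-0.24 ± 0.04), *PSMB6* (-0.20 ± 0.05) and *PSMB1* (-0.18 ± 0.04). *PSMD10* was at 269, 279 and 278 CPM with full-length Csy4 and 324, 314 and 335 CPM with untriggered split Csy4, with no overlap. Beside these, *PSMB7* fell by 0.17, *PSMB5* by 0.15, *POMP* by 0.13 and *PSMG1* by 0.12, while *PSMD14* (-0.04 ± 0.04) and *PSMB10* (-0.07 ± 0.18) did not pass the test. *PSMC4* rose by 0.16 (SE 0.05) and *PSMD12* by 0.10 (SE 0.04). Of 15 alternatives, the rise of *PSMD12* was lost in 9, the fall of *PSMG1* held in 2 and that of *POMP* in 8. With library totals alone 3 of the 45 genes rose and 6 fell; 4 core genes fell and 13 of 15 were below 0, and the length and GC correction gave the same counts for the core.

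Against triggered split Csy4, full-length Csy4 gave fewer calls: 2 genes rose and 9 fell, so that 20% fell. In this comparison 22.3% of all tested genes were called (10.1% higher, 12.2% lower). Of genes averaging 10 CPM or more 32.4% were called (12.4% higher, 20% lower). The share of the 45 genes that fell is thus that of genes at such levels. All 15 core genes were below 0 (median -0.10) and 6 fell. Genes averaging 10 CPM or more had a median of -0.0299 (quartiles -0.1382 and 0.0882), and their share below 0 was not counted. *PSMC4* rose by 0.17 (SE 0.05), *PSMD12* by 0.12 (SE 0.04), and *PSMG2*, *PSMD10*, *PSMD1* and *PSMB3* fell by 0.22, 0.19, 0.15 and 0.15. *PSMB5* (-0.08 ± 0.04), *PSMB6* (-0.13 ± 0.05), *PSMB7* (-0.09 ± 0.05), *PSMB10* (-0.11 ± 0.18), *PSMD14* (0.01 ± 0.04), *PSMG1* (-0.04 ± 0.05) and *POMP* (-0.04 ± 0.05) did not pass the test. Leaving out 1 library at a time left 3 to 6 falls, of which 1 to 3 were in the core, whichever library was left out, and with library totals alone 4 genes rose and 3 fell. The call of *PSMB3* held in 6 of 15 alternatives and that of *PSMG2* in 8.

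**Figure D3:**
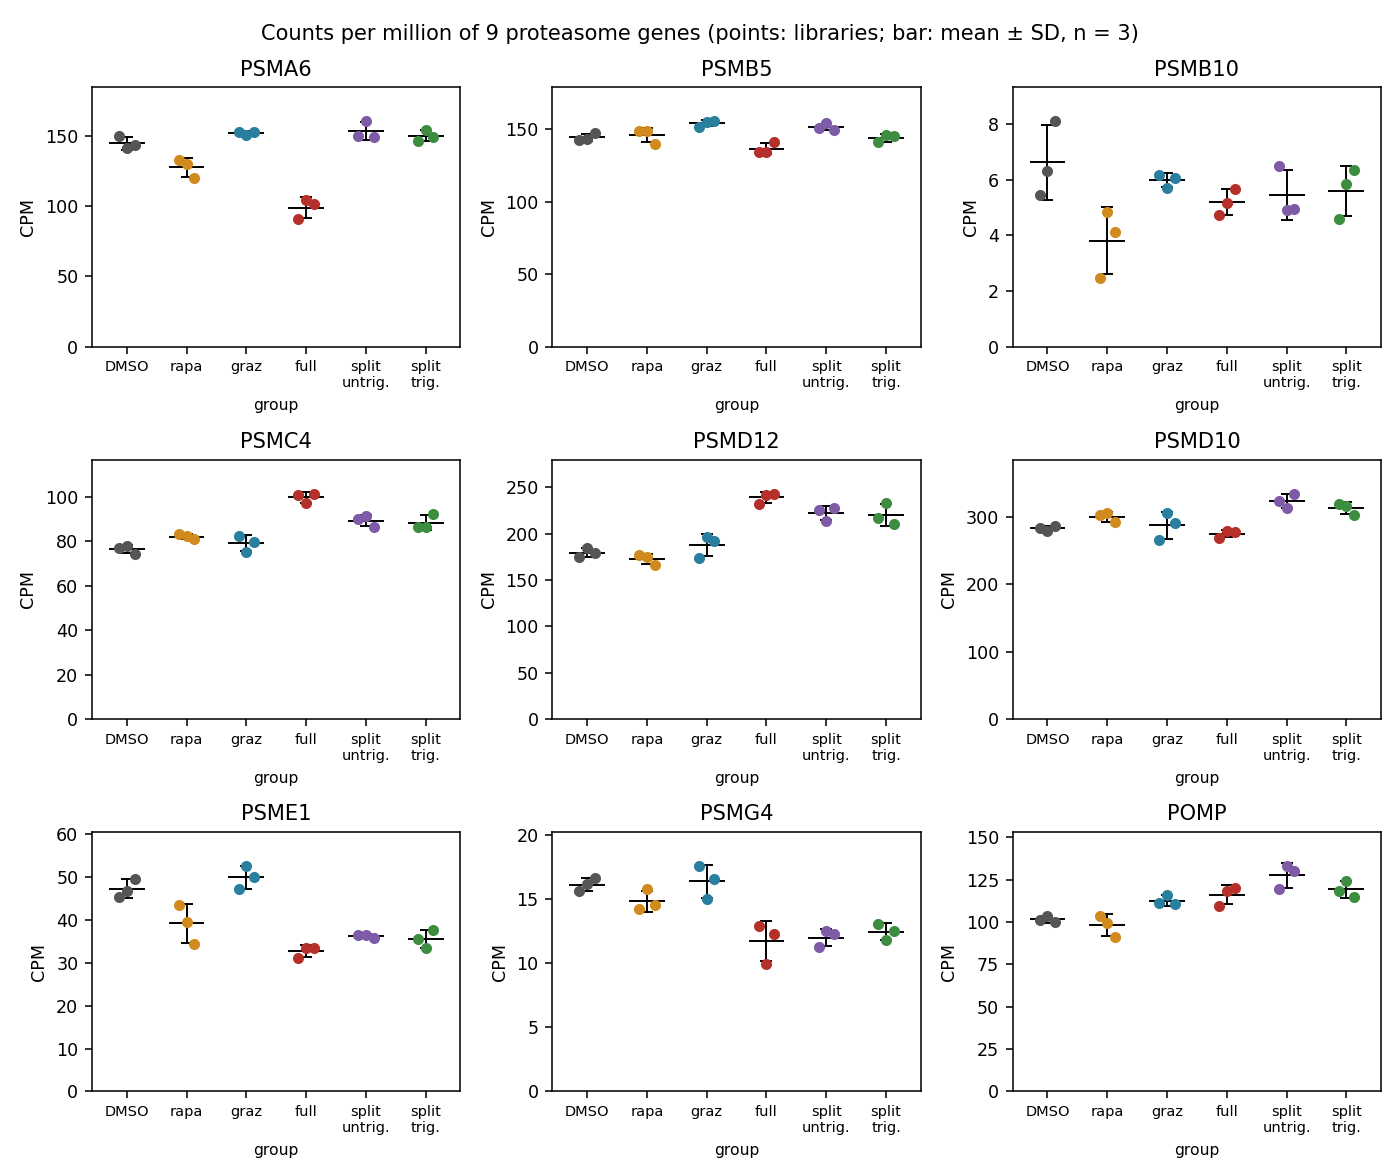
CPM of 9 proteasome genes in each library (points), with the mean and SD of each group (n = 3); rapa is rapamycin, graz grazoprevir, full full-length Csy4. PSMA6 is low only in the full-length group (90.7 to 104 CPM) among the transfected groups, PSME1 and PSMG4 are low in all 3 transfected groups, and PSMB10 is lowest with rapamycin (2.48 to 4.83 CPM).

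Grazoprevir alone changed none of the 45 genes past the threshold by edgeR or DESeq2. At that threshold 0.2% of all tested genes were called by edgeR, 0.106% higher and 0.0946% lower. An unadjusted edgeR p under 0.05 was seen for 7 of the 45. The share of all tested genes at that level was not counted, so these 7 have no background beside them. The fold changes with grazoprevir were small and mostly positive, with 39 of 45 above 0, a median of 0.06 and a range of -0.14 to 0.41. Genes averaging 10 CPM or more had a median of 0.003 (quartiles -0.0512 and 0.054), and their share above 0 was not counted. The summed level of the core was 2407 ± 35.7 CPM against 2306 ± 29.8 CPM with DMSO. Fold changes fell with transcript length across genes here (Spearman's rho of -0.417 over 9820 genes), and after the length and GC correction the median was 0.03. Leaving out grazoprevir replicate 1 gave a median of 0.05 and again no call. *POMP*, at 111, 116 and 110.9 CPM, was at 0.15 ± 0.05 (edgeR adjusted p = 0.22), *PSMB5* at 0.09 ± 0.04, *PSMB6* at 0.02 ± 0.05, *PSMB7* at 0.01 ± 0.05, *PSMB10* at -0.14 ± 0.17, *PSMD14* at 0.09 ± 0.04 and *PSMG1* at 0.08 ± 0.05.

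Within split Csy4 cells, grazoprevir also gave no call among the 45 genes by edgeR or DESeq2. By edgeR 0.2% of all tested genes were called, 0.195% higher and 0.00557% lower. An unadjusted edgeR p under 0.05 was seen for 6 of the 45, with the share of all genes not counted. The median of the 45 genes was -0.03, with 12 above 0, beside a median of -0.0007 for genes averaging 10 CPM or more. *PSMB5* was at -0.07 ± 0.04, *PSMB6* and *PSMB7* at -0.08 ± 0.05, *PSMB10* at 0.04 ± 0.18, *PSMD14* at -0.06 ± 0.04, *PSMG1* at -0.08 ± 0.05 and *POMP* at -0.10 ± 0.05. The drug's effect in split Csy4 cells minus that in untransfected cells was negative for 40 of the 45 genes (median -0.08). Genes averaging 10 CPM or more had a median of 0 (quartiles -0.0759 and 0.0786). The difference passed the test for none of the 45 with edgeR, beside 0.351% of all tested genes. An unadjusted edgeR p under 0.05 was seen for 11, with the share of all genes not counted. The difference rose with transcript length across genes (Spearman's rho of 0.387 over 9820 genes). After the length and GC correction the median of the 45 genes was -0.03. *POMP* came nearest, at -0.25 ± 0.07 (edgeR adjusted p = 0.088), and DESeq2 called it (adjusted p = 0.0425).

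With rapamycin 10 of 15 core genes fell and none rose (median -0.16, beside 0.0156 for genes averaging 10 CPM or more). Of 25 regulators 7 fell and 4 rose (4 falls without DMSO replicate 2 and 3 without rapamycin replicate C), and of 5 chaperones 1 fell. In all 4 of the 45 genes rose and 18 fell, so that 40% fell, where 33.2% of all tested genes were called and 21.1% of genes averaging 10 CPM or more were called lower (25.1% higher). The core summed to 2108 ± 84 CPM, against 2306 ± 29.8 CPM with DMSO. *PSMB10* (chr16:67934502-67937087, hg38) fell most, from 5.45, 6.32 and 8.11 CPM to 2.48, 4.83 and 4.13 CPM (-0.77 ± 0.18; edgeR adjusted p = 0.00051), with no overlap and under every alternative run. *PSMG1* fell from 121, 121 and 114 CPM to 99.97, 94.2 and 87.9 CPM (-0.34 ± 0.05; edgeR adjusted p = 8.1e-09). *PSME1* (-0.27 ± 0.07; not past the test without rapamycin replicate C), *PSMA3* (-0.25 ± 0.05), *PSMA5* (-0.19 ± 0.04) and *PSMA6* (-0.19 ± 0.04) followed. *PSMB6* fell by 0.18 (SE 0.05) and *PSMD14* by 0.11 (SE 0.04), while *PSMB5* (0.02 ± 0.04), *PSMB7* (-0.09 ± 0.05) and *POMP* (-0.05 ± 0.05) did not pass the test. The rises were those of *PSMD9*, a chaperone of base assembly (0.20 ± 0.07; the call held in 9 of 14 alternatives), *PSMC5* (0.17 ± 0.05), *PSMF1* (0.16 ± 0.05) and *PSME3* (0.14 ± 0.04). After the length and GC correction 8 of the 45 genes rose and 11 fell, with 6 falls in the core.

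Beside the genes chosen by name, 39 genes of the ubiquitin-proteasome pathway were listed, of which 38 were tested; *DDI1* had 0 counts. In transfected cells more of them rose than fell: 16 and 10 with full-length Csy4, 16 and 4 with untriggered split Csy4 against DMSO, and 15 and 7 with triggered split Csy4 against grazoprevir. As shares of the 38, 42.1%, 42.1% and 39.5% rose and 26.3%, 10.5% and 18.4% fell, beside 27.2%, 20.9% and 22.7% higher and 34.6%, 20.2% and 23.1% lower among genes averaging 10 CPM or more. *UFD1*, a cofactor of the segregase VCP, was at 46.7, 45.5 and 43.2 CPM with DMSO and 65.4, 63.6 and 70.7 CPM with full-length Csy4 (0.56 ± 0.06; edgeR adjusted p = 1.9e-12), and rose by 0.45 and 0.34 in the split comparisons. *ADRM1*, a ubiquitin receptor of the base without a PSM symbol, rose by 0.43, 0.35 and 0.20. *MAFG*, a small partner of NFE2L1, rose by 0.73, 0.42 and 0.35, and *AKIRIN2*, which takes part in nuclear import of proteasomes, by 0.59, 0.27 and 0.56. *ZFAND5*, an activator of the proteasome, rose by 0.31, 0.28 and 0.20, and *FAF2*, a recruiter of VCP, by 0.34, 0.22 and 0.30.

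*NFE2L1* itself was at 116, 108 and 112 CPM with DMSO, 117, 118 and 128 CPM with full-length Csy4, 129, 128 and 128 CPM with untriggered and 131, 136 and 138 CPM with triggered split Csy4. Each transfected group lay above its own control without overlap, full-length Csy4 only narrowly (117 against 116 CPM at the nearest). Groups did not overlap for 54%, 40.6% and 40.8% of all tested genes with full-length, untriggered and triggered split Csy4 against their controls. The log2 fold changes of *NFE2L1* were 0.12 ± 0.04 and 0.20 ± 0.04 against DMSO and 0.22 ± 0.04 against grazoprevir. *PAAF1*, a factor that binds base ATPases, fell by 0.32, 0.49 and 0.51 in these 3 comparisons, and *UBQLN4*, a shuttle for ubiquitinated proteins, fell by 0.50, 0.15 and 0.19. *RPS27A*, which encodes ubiquitin fused to a ribosomal protein, fell by 0.26 with full-length Csy4 and by 0.32 with triggered split Csy4 against grazoprevir, and was at -0.09 with untriggered split Csy4, not past the test. Against untriggered split Csy4, 11 of the 38 fell with full-length Csy4 and 4 rose, and the share that fell, 28.9%, is near the 24.2% lower among genes averaging 10 CPM or more; *ECPAS*, a proteasome adaptor, fell by 0.27 and *UBQLN4* by 0.35, *AKIRIN2* rose by 0.32, and *NFE2L1* was at -0.08 ± 0.04, not past the test. Against the triggered form 8 fell (21.1%, beside 20% of such genes) and 3 rose, with *ECPAS* at -0.22, *UBQLN4* at -0.32, the polyubiquitin gene *UBB* at -0.12 and *NFE2L1* at -0.16 ± 0.04. With rapamycin 11 rose (28.9%, beside 25.1%) and 7 fell (18.4%, beside 21.1%), with *UBQLN2* at 0.37 ± 0.06, *NFE2L1* at 0.29 ± 0.04 and *NFE2L3* at -0.36 ± 0.06. With grazoprevir 1 of the 38 genes rose, *RPS27A*, by 0.19 (SE 0.04; edgeR adjusted p = 0.0084); without grazoprevir replicate 1 it rose by 0.21, and 3 of 6 fits that left out 1 library lost the call. *NFE2L1* was at 0.05 ± 0.04.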

How the data were processed

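The deposited file holds raw counts per gene, made by the authors from poly(A)-selected libraries. The submitters' processing notes list hg38 as the build, HTSeq 0.6.1 and HISAT2 2.2.1, cutadapt 1.9.1, and also DESeq2 1.44.0; how strand was treated is not given in the sources used here. Because the 3 columns for rapamycin carry the same name, their letters A, B and C are only names. All 18 libraries were fitted together by edgeR 4.0.16 (R 4.3.3), with TMM factors, a mean for each of the 6 groups and the robust quasi-likelihood test, on the 17966 genes that filterByExpr kept; the common BCV was 4.15%. The Benjamini-Hochberg adjustment ran over all of these genes in each comparison, and "rose" or "fell" means an adjusted p under 0.05. The SE is the absolute log2 fold change over the square root of F.

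The members and lists were chosen with earlier results of these data known, and no p is adjusted over a list. Named genes are, in each comparison, the 6 called members with the largest change, PSMB5 to PSMB10, PSMD14, PSMG1 and POMP, the 4 called pathway genes with the smallest adjusted p, and NFE2L1; others were named after their values were seen. Some pathway genes that this rule names are not reported here. Alternatives were median-of-ratios factors, library-size scaling alone, no filter, a floor of 1 CPM in at least 3 libraries, testing for more than a 1.2-fold change, DESeq2 1.42.0, only the groups compared, a replicate block, a length and GC correction per library, PSMD5, PSMD9 and PSMD10 counted as chaperones, and leaving out each library. The steps were tested on simulated data. Exon lengths are the union of all exons of a gene in GENCODE 29. Figures were drawn with matplotlib 3.10.9.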

Additional observations from a re-analysis of the deposited data

Results flagged for a closer look

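*RPS27A*, which encodes ubiquitin fused to a ribosomal protein, was flagged because grazoprevir moved it differently in untransfected and in split Csy4 cells. The difference between the drug's effects was -0.2345 on the log2 scale (SE 0.05; edgeR adjusted p = 0.016). It was at 653, 663 and 648 CPM with DMSO and 718, 778 and 738 CPM with grazoprevir, and at 609.5, 606 and 633 CPM with untriggered and 552, 628 and 608 CPM with triggered split Csy4. The untransfected groups do not overlap and the split Csy4 groups do. Groups did not overlap for 13.4% of all tested genes with grazoprevir against DMSO and 13.3% with the drug within split Csy4 cells. The call was lost in 5 of the 12 fits that left out 1 library (edgeR adjusted p from 0.00132 to 0.143). Of all tested genes 0.351% were called for this difference. Across genes the difference rose with transcript length (Spearman's rho of 0.387 over 9820 genes). The part of this trend in the result for *RPS27A* is not given here.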

How the results depend on the processing

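In each list below, counts are of the 45 tested genes and medians are of their log2 fold changes. With library-size scaling alone, full-length Csy4 against DMSO gave 17 rises, 6 falls and a median of 0.034; triggered split Csy4 against grazoprevir a median of -0.0043; full-length against untriggered split Csy4 6 falls and a median of 0.0146; and full-length against triggered split Csy4 4 rises, 3 falls and a median of 0.0229, so the median changed sign in the 3 comparisons of full-length Csy4. With no filter the medians were -0.0597 for full-length Csy4 against DMSO and 0.0504 for grazoprevir, and there were 6 rises for triggered split Csy4 against grazoprevir and 1 rise for full-length against either split form. The test against a 1.2-fold change left 2 rises and 3 falls for full-length Csy4 against DMSO, 0 and 0 for untriggered split Csy4, 0 and 1 for triggered split Csy4 against grazoprevir, for full-length against either split form and for rapamycin. By DESeq2 full-length Csy4 gave 1 rise against untriggered and 3 falls against triggered split Csy4, and the interaction gave 1 fall (*POMP*). After the length and GC correction the medians were 0.02 for full-length Csy4 against DMSO, 0.0573 for triggered split Csy4 against grazoprevir, 0.028 for grazoprevir, -0.0281 for rapamycin and -0.0335 for the interaction, with 7 falls for full-length against untriggered split Csy4 and 8 rises and 11 falls for rapamycin. The cause of these shifts was not tested.

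Leaving out each library in turn gave medians of -0.0494 to -0.0234 for full-length Csy4 against DMSO, -0.0403 to -0.0032 for triggered split Csy4 against grazoprevir, -0.095 to -0.0458 for full-length against untriggered and -0.0619 to -0.0216 against triggered split Csy4, 0.049 to 0.0611 for grazoprevir and -0.0989 to -0.0692 for the interaction. Rises were 5 to 7 for triggered split Csy4 against grazoprevir, 0 to 2 for full-length against untriggered and 1 to 2 against triggered split Csy4; falls were 3 to 6 for the last and 0 to 1 for the interaction, where *POMP* was called without grazoprevir replicate 1 (-0.26) or untriggered split Csy4 replicate 1 (-0.29).

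Over 30 same-numbered pairs of libraries the correlation of deviations ran from -0.228 to 0.232, with 4 above 0.1. Over 60 other pairs it ran from -0.223 to 0.3. The 4 were all pairs among DMSO, grazoprevir and full-length Csy4 libraries, with replicate 1 of DMSO and grazoprevir highest (0.232). The lowest value, -0.228, was that of replicate 1 of grazoprevir and untriggered split Csy4. These ranges do not settle whether the replicate numbers pair the samples. With the replicate block, full-length Csy4 against DMSO gave 11 rises and 14 falls and untriggered split Csy4 17 and 7. Rapamycin's columns carry no number and entered no block. Of 1974 alternative values for single named genes, 0 changed sign where either value passed the test, 1822 stayed on their side of the threshold, 144 lost a call, 62 of them in the test against a 1.2-fold change, and 8 gained one; 26 values that passed no test changed sign, all within 0.0736 of 0, *PSMG1* and *POMP* with library-size scaling for full-length against triggered split Csy4 among them. Of the called genes, all but the 1.2-fold test kept 15 of 25 for full-length Csy4 against DMSO, 18 of 24 for untriggered and 13 of 22 for triggered split Csy4 against their controls, 4 of 16 and 4 of 11 for full-length against untriggered and triggered split Csy4, and 10 of 22 for rapamycin. Depth limits *PSMD5* and *PSMB10* most.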
